A study of Macaca mulatta with 22 samples.

Results

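The genes described here bear family names of enzymes that attach ubiquitin to proteins or take it off, or of their scaffolds and receptors. They are all genes with an m6A peak in at least 1 animal whose symbol begins with UBE, RNF, TRIM, FBX, KLHL, HECTD, HECW, NEDD4 or UBR, or with USP or CUL followed by a digit. Of 3671 genes with a peak, 83 met this rule, and they held 220 of the 10069 peaks. The members by name were 11 UBE genes, 17 RNF, 9 TRIM, 11 FBX, 7 KLHL, 5 HECTD or HECW, 4 UBR, 16 USP and 3 CUL genes. NEDD4 and NEDD4L had no peak.

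Ubiquitin is a small protein that is activated by an E1 enzyme, passed to an E2 conjugating enzyme and placed on a target protein with the help of an E3 ligase. RING ligases, among them the RNF and TRIM proteins, bring the E2 and the target together, HECT ligases carry ubiquitin themselves before they hand it on, and cullin ligases are built on a scaffold that holds exchangeable F-box or KLHL substrate receptors. USP proteins are deubiquitinases, which remove ubiquitin again, and in neurons the balance of both activities sets the turnover of synaptic, axonal and signalling proteins. N6-methyladenosine (m6A) is a methyl mark on mRNA that reader proteins recognise and that bears on splicing, translation and decay of the transcript.

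m6A was mapped in the prefrontal cortex of 11 rhesus macaques (Macaca mulatta) aged 35 days by immunoprecipitation of RNA fragments with an m6A antibody. The 6 control animals were the males A and B and the females C, C1, C2 and C3. The 5 treated animals were the males D and S1 and the females F, S2 and S3, which had inhaled about 2.5 to 3% of the anaesthetic sevoflurane for 4 h on about postnatal days 7, 21 and 35. What the controls breathed is not given in the labels. The comparison addressed is whether repeated sevoflurane exposure is followed by m6A peaks in other transcripts.

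Each animal has its own list of peaks, and every value below is read from these 11 lists. The lists of treated animals were longer, at 1217 ± 295 peaks (SD, n = 5) against 664 ± 282 (SD, n = 6), and the control C3, with 1210 peaks, lay among the treated animals. The depth of the libraries is unknown, since the lists hold no read counts. RNA levels were not analysed here, so a peak present in some animals and not in others need not be a difference in methylation. In bulk tissue fewer cells of a type and less RNA per cell cannot be told apart. Of 5 neuron markers 3 had a peak: RBFOX3 (NeuN) in 4 controls and 3 treated animals, SYT1 in 2 and 0, and NEFL in 0 and 1. Of 4 oligodendrocyte precursor markers PDGFRA had a peak in 0 controls and 3 treated animals (Fisher's exact p = 0.0606) and OLIG2 in 0 and 1. Peaks were found in 2 of 5 astrocyte, 1 of 5 oligodendrocyte, 1 of 4 microglia and 0 of 4 endothelial markers, and these lists do not show how much RNA any of them had.

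Ubiquitin genes with a peak numbered 15 in A, 12 in B, 11 in C, 9 in C1, 16 in C2 and 27 in C3. The treated animals had 23 in D, 22 in F, 16 in S1, 26 in S2 and 25 in S3. The groups overlapped: C3 had more than any treated animal, and S1 had as many as C2. The means were 15 ± 6.42 genes over the 6 controls (mean ± SD) and 22.4 ± 3.91 over the 5 treated animals, a ratio of 1.49. Over all genes with a peak the same ratio was 1.74, from 601 ± 235 to 1043 ± 222 genes. Without C3 the difference between the group means was 9.8 ubiquitin genes in place of 7.4.

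Relative to each list's genes, the ubiquitin genes made up 2.69% in A, 2.41% in B, 2.44% in C, 2.21% in C1, 2.49% in C2 and 2.57% in C3. They made up 2.31% in D, 2.14% in F, 2.18% in S1, 1.93% in S2 and 2.25% in S3. The share was thus 2.47 ± 0.161% over the 6 controls (mean ± SD) and 2.16 ± 0.147% over the 5 treated animals, with C1 as the control inside the treated range. The difference was -0.303 points in males (2 against 2 animals) and -0.323 points in females (3 against 4). When each list was reduced to its 452 peaks with the smallest p-values, the share differed by less than its spread. It was 2.49 ± 0.335% over the 6 controls and 2.56 ± 0.510% over the 5 treated animals (mean ± SD). The numbers were then 10.3 ± 1.51 and 10.4 ± 2.07 ubiquitin genes. With peaks of p at most 1e-05 only, the share stayed lower in treated animals, at 2.55 ± 0.332% in controls and 2.23 ± 0.299% in treated animals (mean ± SD).

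**Figure D1:**
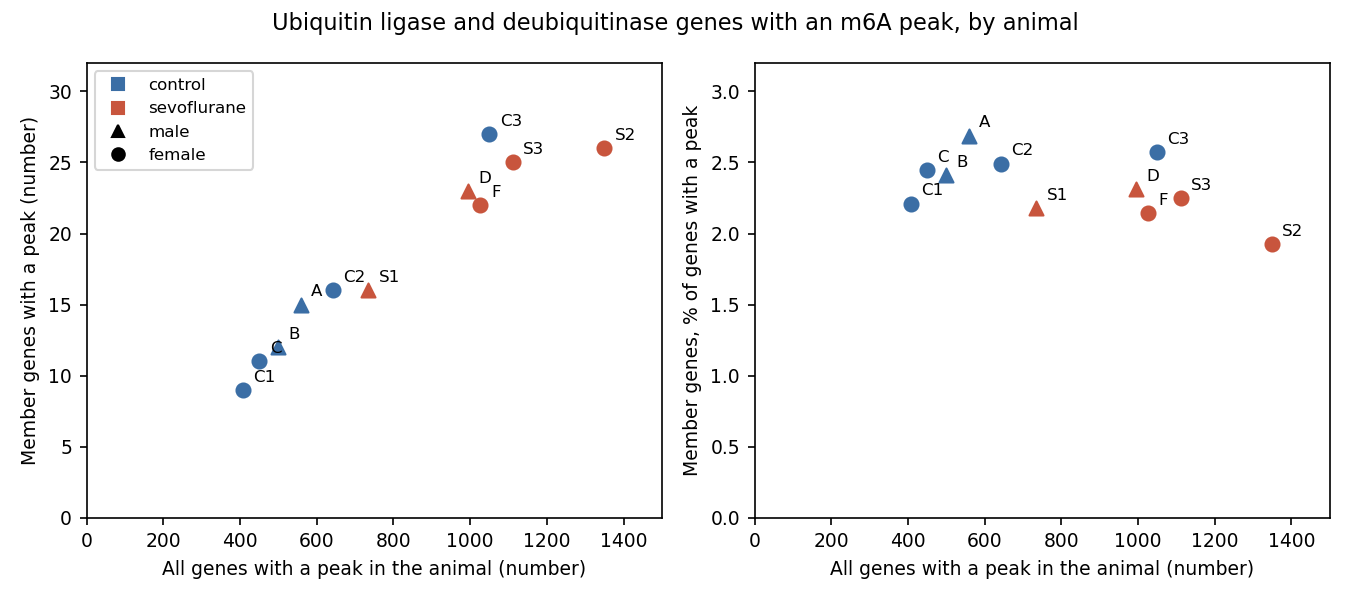
Ubiquitin genes with a peak against all genes with a peak, as a number (left) and as a percentage (right), with 1 point per animal (blue, control; red, sevoflurane; triangles, males; circles, females). The number follows the length of the list, C3 with 27 genes lies beside the treated animals, and the shares run from 1.93% in S2 to 2.69% in A.

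Most ubiquitin genes had a peak in few animals. A peak was found in a single animal for 50 of the 83 genes (60.2%, against 55.9% of all genes with a peak), in 2 to 5 animals for 22, in 6 to 10 animals for 8 and in all 11 animals for 3 (3.61%, against 2.21% of all genes). The 3 were RNF112, TRIM41 and UBE2K. Both groups had the gene in 28 cases, controls alone in 25 and treated animals alone in 30. These shares for 1 group alone, 30.1% and 36.1%, stood beside 22.8% and 44.9% for all genes. Of the 25 genes of controls alone 24 came from 1 animal, and of the 30 of treated animals alone 26 did. Over all genes these numbers were 755 of 838 and 1298 of 1650. FBXL17 was thus the only ubiquitin gene in 2 controls alone, and HECW1, KLHL21, RNF187 and USP20 the only ones in 2 treated animals alone. Genes in 2 or more animals of controls alone were 1.20% of ubiquitin genes and 2.26% of all genes. For treated animals alone they were 4.82% and 9.59%.

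No ubiquitin gene passed the test for a different number of animals with a peak. Fisher's exact test (two-sided) was run on the 1486 genes with a peak in 2 to 9 animals, of which 29 were ubiquitin genes. Of all genes tested, 1.82% (27) favoured the sevoflurane animals at an unadjusted p under 0.05 and 0% (0) favoured the controls, and the ubiquitin genes among them numbered 0 and 0. After Benjamini-Hochberg adjustment 0 genes remained in either direction, the smallest adjusted p being 0.606. With these group sizes the smallest possible p was 0.00216, for a gene in every animal of 1 group and in none of the other. A gene in 2 animals could reach no less than 0.182 and one in 3 no less than 0.0606. Genes in 2, 3, 8 or 9 animals could therefore not pass, and they were most of the 29 ubiquitin genes tested. Of the 29 ubiquitin genes tested, 27 had a peak in a larger share of treated animals (93.1%, against 83.2% of all genes tested), and the median difference was 23.3 percentage points in both sets. The exceptions were USP9X and FBXL17.

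The families differed in how many of their genes had a peak at all. Symbols were counted in the supplied table of macaque genes, where 3244 of 18036 symbols had a peak (18.0%). Among the E2 enzymes and other UBE symbols 10 of 38 had one (26.3%), among the RNF symbols 15 of 79 (19.0%) and among the TRIM symbols 9 of 57 (15.8%). The highest shares belonged to the small families, with 5 of 8 HECTD, HECW and NEDD4 symbols (62.5%) and 4 of 6 UBR symbols (66.7%). Cullins had 3 of 8 (37.5%), F-box genes 11 of 58 (19.0%), KLHL genes 6 of 34 (17.6%) and USP genes 16 of 51 (31.4%). The 4 members with symbols outside that table are not in these shares.

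**Figure D2:**
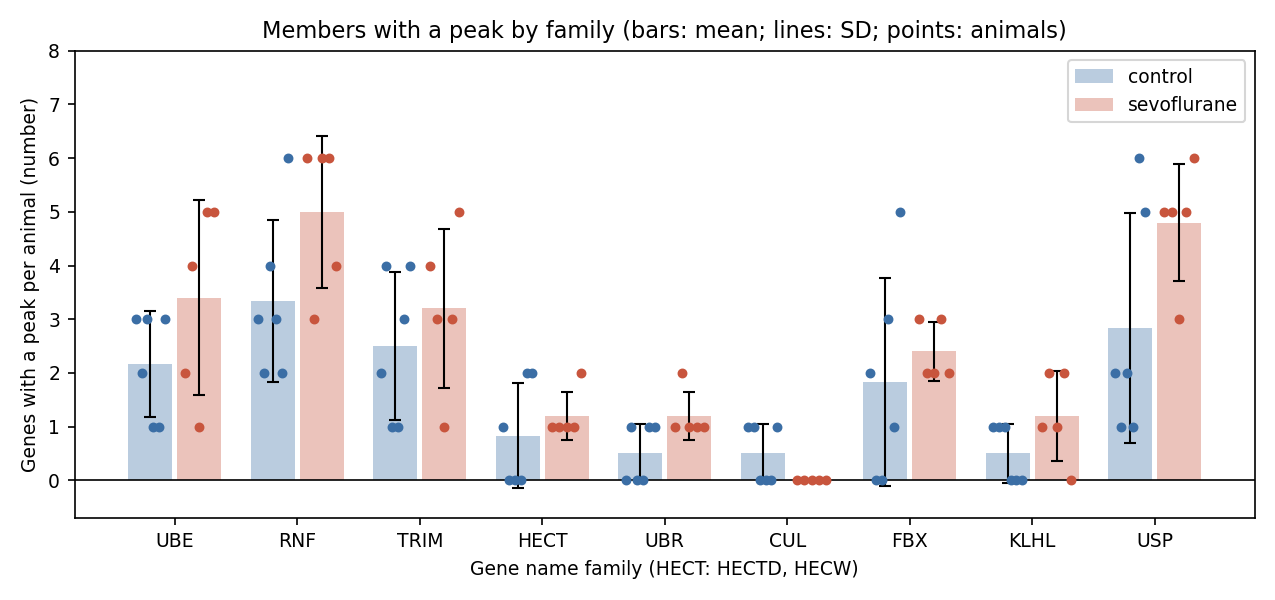
Genes with a peak per animal in each family of names, with bars for group means, lines for the SD and points for animals (blue, 6 controls; red, 5 sevoflurane animals). USP genes averaged 2.83 in controls and 4.8 after sevoflurane and RNF genes 3.33 and 5, with overlapping points in each. The 3 cullin genes were each in a single control, as were 20.6% of all genes with a peak.

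Among the E2 enzymes, UBE2K had a peak in every animal. UBE2K (E2-25K) builds ubiquitin chains linked through lysine 48, the signal for the proteasome, and binds huntingtin. The authors' fold enrichment of its strongest peak was 20.6 in A, 16.5 in B, 7.04 in C, 12.0 in C1, 29.3 in C2 and 13.5 in C3. In treated animals it was 25.5 in D, 12.7 in F, 7.07 in S1, 14.9 in S2 and 245 in S3. Enrichments rank peaks only within a list, so each was also expressed as a percentile of the animal's own list, where 100 is the strongest peak. That percentile ran from 49.7 (C) to 91.0 (C2) in controls and from 57.8 (S1) to 99.8 (S3) after sevoflurane. The groups overlapped, at means of 72.7 ± 13.2 (SD, n = 6) and 78.1 ± 15.8 (SD, n = 5). The two-sided exact permutation p was 0.561 (adjusted p = 0.818), and without S3 the difference was -0.0248 points.

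The UBE2K peak lay at the start of the gene. All 11 animals shared a region on chromosome 5 from 39386426 to 39425233 (plus strand, rheMac8 assembly), which began 90 bp from the annotated 5' end. In 9 animals the peak ran over an exon junction, so that the region includes the intron between its blocks. In A and S1 it ended before the junction. S1 had another UBE2K peak near the 3' end of the gene.

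UBE2Q1, an E2 with a long N-terminal extension, had peaks in the control C3 and in D, S2 and S3 (Fisher's exact p = 0.242, adjusted p = 0.635). Its strongest peak had an enrichment of 16.6 in C3, 37.4 in D, 53.2 in S2 and 4.45 in S3. The S3 peak was not in the region of the other animals, which began 119 bp from the 5' end (chromosome 1 from 129193940 to 129196410, minus strand), and the annotation column gave it to the neighbouring gene TDRD10. UBE3A, a HECT ligase despite its prefix, whose loss in neurons causes Angelman syndrome, was singled out after its values were seen. It had peaks in C and S3 only, in separate regions. The other UBE genes were each in 1 to 3 animals.

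The RING ligase gene RNF112 carried the strongest of the shared peaks by median percentile (96.3). RNF112 (neurolastin) is a brain-enriched membrane GTPase with a RING domain that bears on endosomes and dendritic spines. Its enrichment was 50.6 in A, 117 in B, 68.9 in C, 12.3 in C1, 22.7 in C2 and 30.2 in C3, and 69.3 in D, 59.0 in F, 47.8 in S1, 82.3 in S2 and 55.9 in S3. As percentiles these were 94.8, 97.8, 96.3, 74.6, 81.7 and 94.4 in the controls in that order, and 98.8, 97.9, 95.7, 99.0 and 96.8 in the treated animals. Every treated animal stood above 95, controls B and C lay among them, and C1 and C2 lay lowest.

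TRIM41, a RING ligase whose targets include protein kinase C, followed with a median percentile of 95.9. Its enrichment was 62.2 in A, 42.4 in B, 26.9 in C, 9.25 in C1, 47.3 in C2 and 17.1 in C3, and 63.8 in D, 45.4 in F, 41.9 in S1, 72.4 in S2 and 48.9 in S3. The percentiles were 96.5, 92.1, 79.0, 66.2, 97.8 and 80.2 in controls and 98.2, 95.9, 93.7, 98.5 and 95.9 after sevoflurane. Controls A and C2 lay within the treated range and the other 4 below it.

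The percentile of the strongest peak was tested for all 210 genes with a peak in at least 4 animals of each group, by a two-sided exact permutation test. Of these, 10.5% (22) stood higher after sevoflurane at an unadjusted p under 0.05 and 0% (0) stood lower, and 0 passed in either direction after adjustment. Ubiquitin genes among the 210 were RNF112, TRIM41, UBE2K, RNF146 and TRIM26, and 0 of these 5 passed. RNF112 had means of 89.9 ± 9.47 in the 6 controls and 97.6 ± 1.37 in the 5 treated animals (± SD), with an exact permutation p of 0.0844 and an adjusted p of 0.424. TRIM41 had means of 85.3 ± 12.3 and 96.4 ± 1.95 in the same animals, with an exact permutation p of 0.0931 and an adjusted p of 0.434. The mean was higher in treated animals for 5 of the 5 ubiquitin genes, by a median of 11.2 points, beside 173 of the 210 genes (82.4%), by a median of 8.09 points. The unadjusted exact p of RNF112 was between 0.0159 and 0.0476 when any 1 control was left out, and that of TRIM41 was 0.0476 without A and 0.0317 without C2. A and C2 were the controls with the highest TRIM41 percentiles, so leaving out either widens the difference by construction. With lists of equal length the exact permutation p was 0.186 for RNF112 and 0.210 for TRIM41, whose difference was then 7.74 points, and ranked by p-value it was 0.190 and 0.390.

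**Figure D3:**
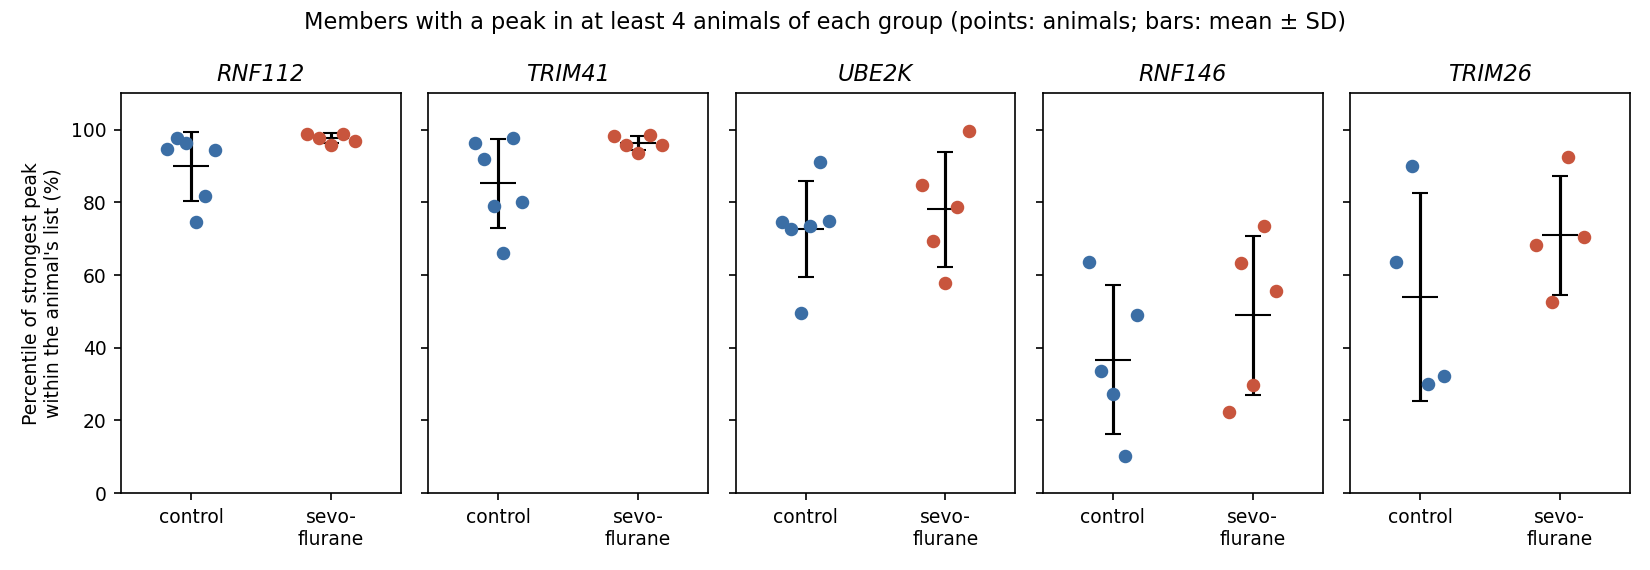
Percentile of the strongest peak within the animal's own list for the 5 ubiquitin genes with a peak in at least 4 animals of each group (points, animals; horizontal lines, means; vertical lines, SD). Treated animals lie close together, at or above 93.7, in RNF112 and TRIM41, where controls reach down to 74.6 and 66.2, and the groups overlap in all 5 genes.

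RNF112 and TRIM41 carried their shared peaks at opposite ends. That of RNF112 lay on chromosome 16 from 19221089 to 19221477 (plus strand, rheMac8) in 1 exonic block, 1045 bp before the 3' end, and the authors class it as 3' UTR in all 11 animals. That of TRIM41 lay on chromosome 6 from 179985687 to 179986195 (plus strand), 1137 bp from the 5' end, and is classed as 5' UTR in 3 animals and as other exon in 8. Further peaks of these genes came from treated animals only: F and S2 had 1 and 2 more in RNF112, and D and S3 had 2 and 1 more in TRIM41. S1, the treated animal with the shortest list (852 peaks), had none, and neither did C3 with its 1210 peaks.

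RNF146 (Iduna), a ligase that recognises poly-ADP-ribosylated proteins and acts on axin in Wnt signalling, had a peak in every animal but C1. Its enrichment was 11.7 in A, 5.05 in B, 4.24 in C, 2.89 in C2, 5.36 in C3, 3.41 in D, 9.83 in F, 4.19 in S1, 11.7 in S2 and 5.82 in S3. The peak stood above the middle of the list in A, F, S2 and S3 and below it in the other 6 animals. The percentile was 36.8 ± 20.5 in 5 controls and 48.9 ± 21.9 in 5 treated animals (mean ± SD), with an exact permutation p of 0.365. All 10 animals shared a region on chromosome 4 from 140338229 to 140351411 (minus strand). With lists of equal length RNF146 had a peak in 2 controls and 1 treated animal.

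TRIM26, a ligase of antiviral signalling, had a peak in 4 controls and 4 treated animals. Enrichments were 11.7 in A, 38.9 in B, 4.62 in C2, 3.7 in C3, 11.7 in D, 6.62 in F, 31.9 in S2 and 9.61 in S3, and percentiles were 54.0 ± 28.5 (SD, n = 4) and 71.0 ± 16.4 (SD, n = 4; exact permutation p = 0.286). All 8 animals shared its region (chromosome 4 from 30895996 to 30896295, minus strand).

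RNF220 and TRIM44 were each in 2 controls and 4 treated animals (Fisher's exact p = 0.242, adjusted p = 0.635 for each). RNF220, a ligase of the sonic hedgehog pathway in the developing nervous system, had enrichments of 5.99 in C, 3.0 in C1, 5.4 in D, 13.6 in F, 3.78 in S1 and 4.0 in S2. Its region lay on chromosome 1 from 44189931 to 44208559 (plus strand) and covered up to 6 exonic blocks in an animal. It lay near the annotated 3' end, 6051 bp before it, although the authors class its peaks as 5' UTR. TRIM44, which has no RING domain and carries a ubiquitin-binding zinc finger, had peaks of low enrichment. They stood at 2.77 in B, 2.58 in C3, 2.69 in D, 3.39 in F, 2.65 in S2 and 3.01 in S3, and F had another of 4.27 at a separate site. The authors' peak p-values at the shared site were small, from 6.3e-14 in B to 5e-29 in S2. With lists of equal length, and with peaks of p at most 1e-05 only, TRIM44 kept 2 controls and 4 treated animals. Its median percentile of 9.82 was the lowest of the 11 ubiquitin genes found in at least 6 animals. The 6 animals shared a region on chromosome 14 from 30243943 to 30244210 (minus strand), 505 bp from the 5' end.

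RNF187, a RING protein that coactivates the transcription factor JUN, had a peak in 0 controls and in D and S2, with enrichments of 2.44 and 31.9 (Fisher's exact p = 0.182, adjusted p = 0.606). The peaks lay in separate regions, so no RNF187 site was shared, and with lists of equal length no animal had a peak in it. Of the 17 RNF genes 11 were in a single animal, and of the 9 TRIM genes 6 were.

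The HECT ligase gene HECW2 had a peak in 2 controls and 3 treated animals. HECW2 (NEDL2), which ubiquitinates and stabilises the p53 relative p73, had enrichments of 7.95 in C2, 43.8 in C3, 25 in F, 57.5 in S2 and 11.4 in S3 (Fisher's exact p = 0.567). All 5 animals shared a region in the middle of this long gene, on chromosome 2 from 150116684 to 150117013 (plus strand).

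HECW1 (NEDL1), a neuronal HECT ligase that acts on mutant SOD1, had a peak in D and S1 and in 0 controls (Fisher's exact p = 0.182, adjusted p = 0.606). The peaks were low in enrichment, at percentiles of 12.1 and 16.0, and in separate regions. The authors' peak p-values were 6.3e-11 in D and 1.4e-06 in S1. At the threshold of p at most 1e-05 and with lists of equal length HECW1 still had a peak in 2 treated animals and 0 controls. HECTD2, HECTD3 and HECTD4 were in 1 or 2 animals each.

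Cullin scaffolds had peaks in controls only, each in a single animal. CUL2, the scaffold used by the VHL receptor, had a peak in C3 at an enrichment of 24.1. CUL3, which holds KLHL and other BTB receptors, had one in B at 7.07, and CUL9, which binds p53 in the cytoplasm, had one in A at 7.78. With 1 animal each they were not among the genes tested, and the count of 3 against 0 is a description. A peak in 1 control alone was common, found for 24 of the 83 ubiquitin genes (28.9%) and for 755 of all 3671 genes (20.6%).

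Of the F-box receptors, FBXL19 had a peak in 2 controls and 3 treated animals (Fisher's exact p = 0.567). FBXL19, a CpG-binding F-box protein, was the only ubiquitin gene with more than 1 separate region shared by at least 3 animals. Its region near the 5' end was found in C3, S1 and S2 with enrichments of 2.34 to 3.9 (chromosome 20 from 28735982 to 28737564, plus strand). Its region near the 3' end was found in S1, S2 and S3 with enrichments of 11.1, 61.7 and 48.9 (28760089 to 28760628), and the strongest peak of the control C1, at 25.4, lay in a separate region just before it.

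FBXL17, which checks the pairing of BTB proteins, was the ubiquitin gene found in 2 controls and 0 treated animals (Fisher's exact p = 0.455, adjusted p = 0.901). Its peaks had enrichments of 5.68 in C2 and 3.92 in C3, and they lay in separate regions. Single controls had peaks in FBXW7 (A, 2.75), the receptor for cyclin E, MYC and Notch, in FBXO45 (C3, 12.1), which works with MYCBP2 at synapses, and in FBXL16 (C1, 3.05). Of the KLHL receptors, KLHL21, a CUL3 partner in mitosis, was in S1 and S2 and in 0 controls (Fisher's exact p = 0.182), and both animals shared a region. At the stricter threshold and with lists of equal length neither KLHL21 nor FBXL17 had a peak in any animal. KLHL29 was in C and in D, in separate regions. The other 5 KLHL genes were in 1 animal each.

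The deubiquitinase with the largest difference was USP35, in 2 of 6 controls and 5 of 5 treated animals. USP35 is a deubiquitinase linked to mitochondrial quality control and cell division. Its enrichment was 8.98 in C and 49.8 in C3, and 14.3 in D, 3.97 in F, 47.8 in S1, 11.2 in S2 and 24.5 in S3. By percentile C3, S1 and S3 stood highest and F lowest, so the groups overlapped in strength. Fisher's exact p was 0.0606 and the adjusted p 0.606. Without C or without C3 the unadjusted exact p was 0.0476. These were the 2 controls with the peak, so leaving out either lowers p by construction, and no other single omission brought it under 0.05. With the stricter peak threshold of p at most 1e-05 the animals were 2 and 4. All 7 animals shared a region in 1 exonic block on chromosome 14 from 70418364 to 70418662 (plus strand), 3466 bp before the 3' end.

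USP9X had a peak in more controls than treated animals. It is an X-linked deubiquitinase that stabilises proteins of neural development and is mutated in a form of intellectual disability. Peaks were found in 5 of 6 controls, at 11.8 in B, 6.65 in C, 4.3 in C1, 6.15 in C2 and 6.03 in C3, and in 3 of 5 treated animals, at 4.62 in D, 3.59 in F and 3.28 in S2 (Fisher's exact p = 0.545, adjusted p = 0.901). As percentiles these ran from 36.3 to 65.3 in controls and from 23.1 to 38.5 in treated animals, where only C1 and D overlapped. At the stricter peak threshold USP9X had a peak in 4 controls and 0 treated animals (Fisher's exact p = 0.0606), and with lists of equal length in 3 and 0 (Fisher's exact p = 0.182). The region, on chromosome X from 40993736 to 40993916 (plus strand), began 30 bp from the 5' end and was shared by 7 animals, all but B, whose peak lay elsewhere.

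USP32, a deubiquitinase of the endosomal and Golgi membranes, had a peak in 2 controls and 4 treated animals (Fisher's exact p = 0.242, adjusted p = 0.635). Enrichments were 24.6 in C2, 11.3 in C3, 46.2 in D, 31.8 in F, 25.6 in S2 and 55.9 in S3, and percentiles were 85.1 and 72.0 in the controls and 88.2 to 96.8 in the treated animals. Both controls thus lay below the 4 treated animals with the peak, in ranks from lists of different length. With lists of equal length USP32 had a peak in 1 control and 2 treated animals, and at the stricter threshold in 1 and 4 (Fisher's exact p = 0.0801). The region began 30 bp from the 5' end (chromosome 16 from 53842324 to 53890919, minus strand). USP20, which deubiquitinates receptors at the cell membrane, had a peak in S2 and S3, in separate regions, and in 0 controls (Fisher's exact p = 0.182, adjusted p = 0.606). USP11 was in 4 animals and USP19 in 3, each at 1 shared region, and 9 of the 16 USP genes were in a single animal.

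**Figure D4:**
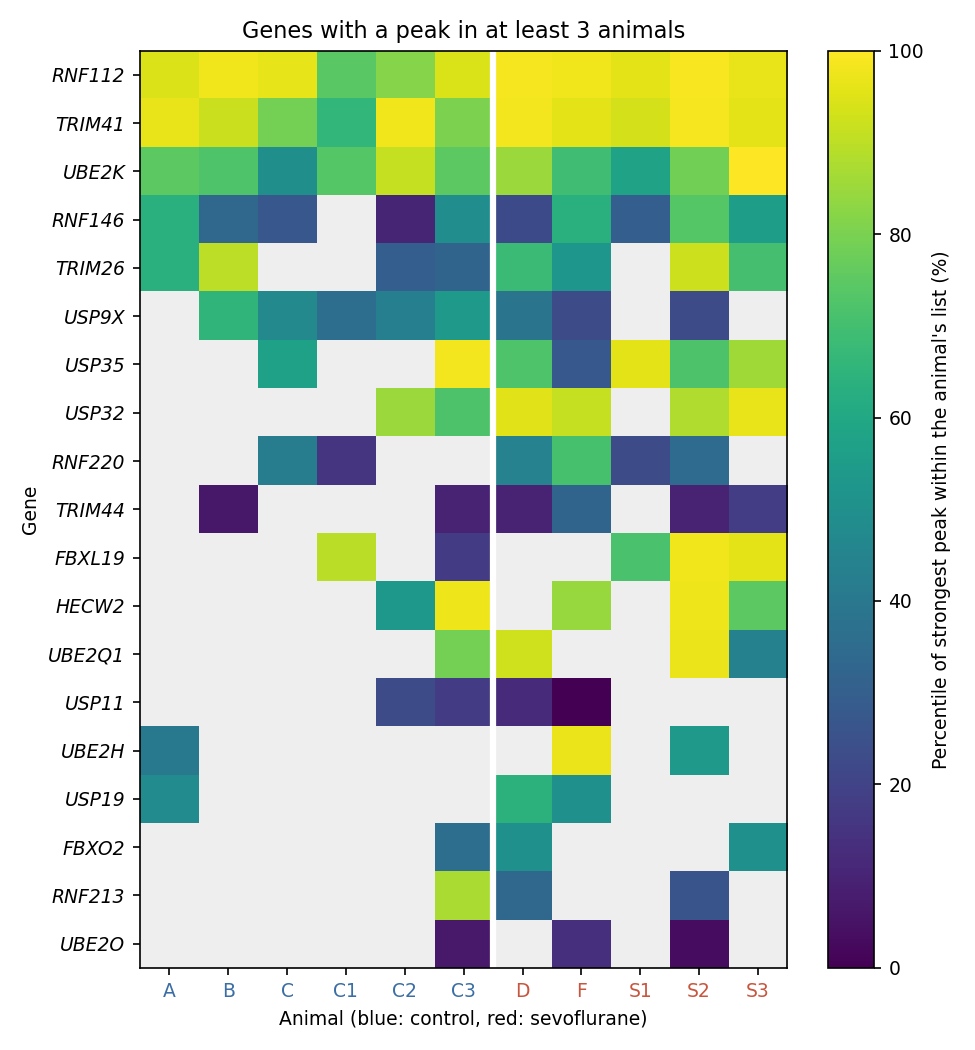
Percentile of the strongest peak within the animal's list (colour, 0 to 100) for 19 ubiquitin genes with a peak in at least 3 animals (rows) in the 6 controls and 5 sevoflurane animals (columns); grey marks no peak. RNF112, TRIM41 and UBE2K fill every column, USP35 fills the 5 sevoflurane columns and 2 control columns, and USP9X fills 5 control columns and 3 sevoflurane columns.

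Where several animals had a ubiquitin gene, they mostly had the same site. The 220 peaks fell into 114 regions, of which 26 were in at least 2 animals, 20 in at least 3 and 10 in at least 6. Sharing of sites was not particular to these genes. Among regions with a position, 26 of 113 in ubiquitin genes and 1352 of 4963 in all genes were in at least 2 animals. Of the 33 genes found in at least 2 animals, 24 had a region that at least 2 animals shared, and 19 had a single region in all their animals. The 9 genes without a shared region were FBXL17, HECTD4, HECW1, KLHL29, RNF187, UBE2O, UBE3A, USP20 and USP8, which includes 3 of the 4 genes found in 2 treated animals and 0 controls, all but KLHL21.

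In size and strength the peaks of ubiquitin genes were close to all peaks. Their median enrichment was 6.14 against 6.03, their median exonic length 150 bp in both sets, and 37.3% of them crossed an exon junction against 35.9%. The median of the genes' percentiles was 35.1 for the 50 ubiquitin genes in a single animal, 49.4 for the 22 in 2 to 5 animals and 66.0 for the 11 in 6 or more. Over all genes these medians were 46.5, 41.2 and 65.2, and the difference between the sets was not tested.

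By the midpoints of their peaks, the recurrent sites of ubiquitin genes were spread along the gene. Of their 26 regions in at least 2 animals, 10 lay in the first 20% of the annotated gene span, introns included (38.5%, against 27.4% of such regions in all genes). Another 9 lay between 20% and 80% (34.6%, against 35.4%) and 7 lay beyond 80% (26.9%, against 37.1%). The 9 include UBE2K (22.6%), RNF146 (31.9%) and UBE2H (29.3%), where most peaks crossed an exon junction and the midpoint fell in the intron. The regions of UBE2K and RNF146 began 90 and 417 bp from the annotated 5' end and that of UBE2H before it. Shares over all genes were computed in the same way. Sites within 120 bp of the annotated 5' end included those of USP32 and USP9X (30 bp), UBE2K and USP11 (90 bp) and UBE2Q1 (119 bp), and that of USP19 began 210 bp from it. Over all 113 regions of ubiquitin genes with a position, 23.0% lay in the first 20% and 32.7% beyond 80%, beside 22.1% and 36.3% for all genes. The share of ubiquitin gene peaks beyond 80% was 30.2 ± 9.71% over the 6 controls and 30.3 ± 11.8% over the 5 treated animals (mean ± SD).

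**Figure D5:**
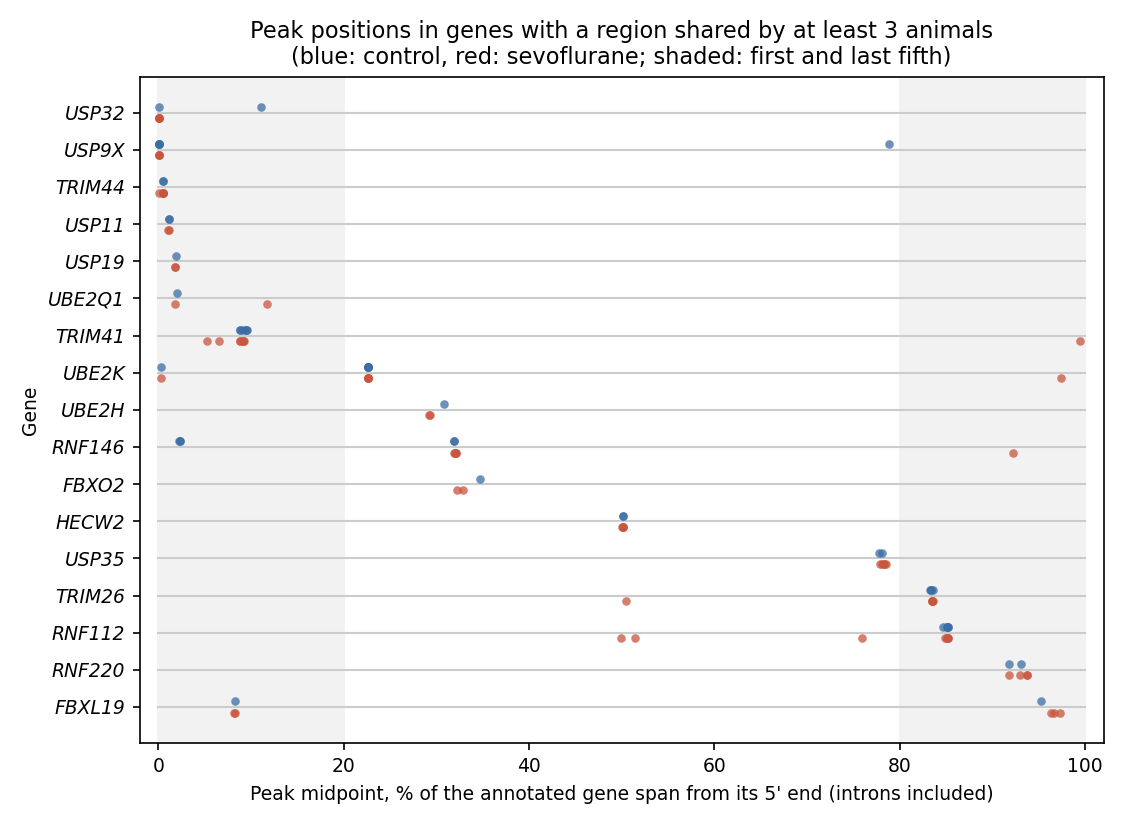
Position of each peak's midpoint along the annotated gene span, introns included, from the 5' end (0%) to the 3' end (100%), for 17 ubiquitin genes with a region shared by at least 3 animals (blue, control; red, sevoflurane; grey bands, the first and last 20%). Control and sevoflurane peaks of a gene fall at the same place in most genes, with the shared regions of USP32, USP9X and TRIM44 near 0% and those of RNF112 and RNF220 beyond 80%; single peaks lie elsewhere, such as USP9X in B at 78.9%, USP32 in C2 at 11.1% and RNF112 in F and S2 at 49.9% to 75.9%, and a peak that crosses a junction has its midpoint in the intron, as in UBE2K at 22.6%.

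Genes of the same pathway outside the rule were counted in 6 lists. Of 16 genes for ubiquitin, related modifiers and activating enzymes 6 had a peak and 0 of 5 tested passed Fisher's exact test, and of 41 proteasome genes 10 had one and 0 of 6 passed. Among 91 other ligases 29 had a peak, at 5.33 ± 1.03 genes per control (SD, n = 6) and 8 ± 3.54 per treated animal (SD, n = 5), and 0 of 11 passed. MYCBP2, the large neuronal ligase that pairs with FBXO45, was in 6 controls and 4 treated animals, and HERC2 in 4 and 4. Among 79 further components of cullin ligases 22 had a peak and 0 of 7 passed. KCTD17, a CUL3 adaptor, was in 4 controls and 5 treated animals. Of 33 other deubiquitinases 9 had a peak and 0 of 5 passed, with the proteasome-bound UCHL5 in 3 and 4.

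Ubiquitin receptors and shuttles were the list with genes past the unadjusted threshold. Of its 35 genes 17 had a peak, at 1 ± 1.55 genes per control (SD, n = 6) and 5.2 ± 3.03 per treated animal (SD, n = 5). Over all genes with a peak these means were 601 and 1043. In the list 2 of 7 tested passed at an unadjusted p under 0.05, beside 1.82% of all genes tested. The list was chosen with earlier results of these data known, so the 2 of 7 is a description and not a test of the list. N4BP3, which binds the ligase NEDD4, was in 0 controls and 5 treated animals (Fisher's exact p = 0.00216, adjusted p = 0.606). TOLLIP, an endosomal adaptor that binds ubiquitin, was in 0 and 4 (Fisher's exact p = 0.0152, adjusted p = 0.606).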

How the data were processed

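The labels' protocols describe antibody enrichment of fragmented total RNA and stranded libraries. Tools named in the submitters' processing notes are HISAT2 2.1.0, StringTie, cutadapt and Trim Galore 0.5.0, with rheMac8 as the assembly, and the peak caller is not given in the sources used here. Each of 11 immunoprecipitated samples has a deposited peak list, 1 per animal, and the 11 input samples were not analysed. Per the file headers, each deposited peak has the authors' fold enrichment (a ratio), its p-value, and negative scores that are the log10 of that p-value and of a false discovery rate. The enrichments began at 2.06 and the p-values ended at 0.001. No depth is given, so the number of animals sets the precision. The labels name each sample as a separate animal.

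A gene was the identifier in which a peak was called, without version, with the symbol of the annotation column (3307 genes) or otherwise of the supplied Ensembl names (179), and 185 genes had none. Symbols conflicted between the sources in 4 cases that touch the rule. Presence was tested with Fisher's exact test and percentiles of enrichment with exact permutation of animals, across all genes, with Benjamini-Hochberg adjustment (Python 3.11.15, SciPy 1.17.1, statsmodels 0.14.6), and the scripts were tested on simulated data. Peaks of a gene were joined into regions where their exonic blocks shared 1 bp or more on a strand, and 1 was added to the 0-based starts. The span of a gene joins its annotated transcripts. The authors' UTR classes depend on the strand (3' UTR peaks have a median position of 95.0% on the plus and 20.8% on the minus strand) and are given for plus-strand genes only.

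The members and lists were chosen with earlier results of these data known. Genes named with values are those passing either test at an unadjusted p under 0.05, those in at least 9 animals, the 8 with the largest share difference each way, the most frequent of each family, those of at least 6 animals with the 5 highest or 5 lowest median percentiles, and those with at least 2 regions in at least 3 animals each. Beside these are described TRIM26, which entered the percentile test, and others named without a test. A few genes meeting these criteria are not reported here. Alternatives were a peak p-value of at most 1e-05, lists of equal length (452 peaks), other filters, rankings, overlaps and gene assignments, strata of sex and naming, and leaving out each animal. Taking the Ensembl symbol first was added after seeing the data.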

Additional observations from a re-analysis of the deposited data

Results flagged for a closer look

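UBE2K in S3 had an enrichment of 245, far above the 7.07 to 25.5 of the other treated animals. RNF146 in control A stood at 11.7, above the 2.89 to 5.36 of the other controls. RNF220 in F stood at 13.6, above the 3.78 to 5.4 of the other treated animals. Control C3 had 28 peaks in ubiquitin genes, beside 9 to 16 in the other controls. These 4 values lay apart from their group by Dixon's criterion among 32 groups of values examined. For normally distributed values chance gives about 1 in 20. Enrichments are skewed ratios, and the groups overlap because enrichment and percentile of the same peaks were both examined, so that rate need not hold here.

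The gene in which a peak was called and the gene in the annotation column differed for the symbols RNF5, UBE2H and UBE2Q1. RNF5, a RING ligase of the endoplasmic reticulum, was named in the annotation column for peaks called in AGER in 1 control (C3) and 2 treated animals (D and S2). UBE2H was named there for peaks called in an identifier without a symbol, in 1 control (A) and 2 treated animals (F and S2). The same animals had peaks called in UBE2H itself, at nearly the same coordinates. Neither set enters the counts of the report. The UBE2Q1 peak of S3, annotated as TDRD10, does enter them.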

How the results depend on the processing

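No ubiquitin gene passed either test under the alternatives that kept all 11 animals, at unadjusted or adjusted p. Leaving out 1 animal gave 0 to 1 ubiquitin genes with a peak more often after sevoflurane (USP35, without C or without C3), 0 to 0 in controls, and 0 to 2 with a higher percentile after sevoflurane (RNF112 and TRIM41, without controls). The difference in ubiquitin genes per animal, 7.4, was 6.2 to 9.8 with 1 animal left out and 0.0667 with lists of equal length. That in their share, -0.307 points, was -0.359 to -0.249 with 1 animal left out and 0.0685 with lists of equal length. Equal lengths remove the difference in list length by construction. Over all genes, the 27 found more often after sevoflurane became 10 at the stricter peak threshold, 4 with equal lengths, 12 for peaks above the median enrichment of each list and 31 to 85 with 1 animal left out, and the 0 in controls became 0 to 1. The 22 genes with a higher percentile after sevoflurane became 13 at the stricter threshold, 2 with equal lengths, 37 when ranked by p-value and 5 to 24 with 1 animal left out. Those higher in controls, 0, became 1, 2 and 1 under the same settings, 1 with at least 3 animals per group and 0 to 1 with 1 animal left out. The cause of these shifts was not tested. The sign turned for RNF146 with equal lengths (-13.3 points in the share of animals), for KLHL29 without D (-16.7 points, and up to 20 without other animals) and for UBE2K's percentile without S3 (-0.0248 points, and up to 10.5 without other animals).

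The labels number 3 animals of each group alike. With that number as a replicate block the difference was 5 ubiquitin genes per animal and -0.306 points of share. Deviations of same-numbered animals from their groups correlated at 0.0862, -0.00991 and 0.0396 over genes, so the number was not treated as a pairing. Peaks joined by 50% reciprocal overlap gave 124 regions in place of 114, with 30 in place of 26 shared. Depth, unknown here, limits which weak peaks a list can hold.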
